A study of Mus musculus with 10 samples.

Results

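Basement membranes are thin sheets of extracellular matrix that surround muscle fibres and lie against the cell surface. Laminins, trimers of an α, a β and a γ chain, form the first network, which is anchored to the cell by integrins and dystroglycan. Nidogens bridge the laminin network to the type IV collagen network, and perlecan, a heparan sulfate proteoglycan encoded by Hspg2, joins the sheet and holds growth factors. The 9 genes described here are the nidogens Nid1 and Nid2, the laminin chains Lama2, Lama4, Lama5, Lamb1, Lamb2 and Lamc1, and Hspg2. They were taken by the gene name printed in the scanner files, which gave 13 probes of 55681 and 9 of 34607 gene or transcript names. A filter on dim probes left 8 of the 9 genes among the 13138 that were tested, and Lama4 did not pass it.

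C2C12 cells, a mouse skeletal muscle line that divides as myoblasts and can fuse into myotubes, received a mimic of miR-27a-3p (6 samples) or, as the control, a scrambled sequence (4 samples). Both were given at 150 nM by lipofection, and cells were collected 72 h later. Transfection efficiency was put at about 60% in the study's design text, so the samples may also have held cells that took up no RNA. RNA was hybridised to 1-colour Agilent arrays, and no untransfected cells were analysed here.

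The 10 files came from 1 slide and from 5 array positions, each scanned 2 times, although the design text describes independently repeated transfections. The 2 scans of a position were averaged and counted as 1 array, which gave 3 mimic arrays and 2 scrambled arrays. A level is the log2 signal of a probe minus a 75th percentile, taken per file over the probes above background in all 10 files. A difference is mimic minus scrambled on that log2 scale. Of the 59305 spots that were not controls, 27.04% to 35.3% per file were well above background. For the representing probes of the 8 tested genes, the 2 scans of an array differed by a median of 0.09 and by at most 0.37. The 2 scrambled arrays differed from each other across all tested genes with an SD of 0.56, against 0.32 to 0.44 between pairs of mimic arrays. Between a mimic and a scrambled array the SD was 0.50 to 0.75. Scrambled array 1 was nearer to mimic arrays 1 and 2 (0.50 and 0.54) than to scrambled array 2. A gene is said to have risen or fallen where limma gave a Benjamini-Hochberg adjusted p under 0.05 over all 13138 genes.

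The mature sequence of the transfected microRNA is shown because all differences here follow its delivery. It is from RefSeq on GRCm38.p6 (chr8:84208727-84208747, plus strand), and the capitals mark the seed, bases 2 to 8, which pairs with messenger RNAs.
mmu-miR-27a-3p: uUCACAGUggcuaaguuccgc
The seed's complement, ACTGTGA, was absent from the 13 probe sequences and present in 455 of all 55681 probes (0.817%). A probe covers only 60 bases, so this says nothing of the rest of a transcript, and the untranslated regions were not analysed here.

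Promoter sequences, from 250 bases before to 50 after the start of a gene, were matched by symbol for 6 of the 9 genes. Those of Nid2, Lama4 and Lamc1 had no entry in the table used. The Nid1 promoter is printed because Nid1 was the member that rose, and the Lamb1 promoter because Lamb1, which shares both motif types with Nid1, had a difference close to 0. Both are from RefSeq on GRCm38.p6, plus strand, at chr13:13437352-13437651 for Nid1 and chr12:31265043-31265342 for Lamb1. Capitals mark matches on either strand to the GC box GGGCGG and to CCAAT, which do not overlap here.
Nid1: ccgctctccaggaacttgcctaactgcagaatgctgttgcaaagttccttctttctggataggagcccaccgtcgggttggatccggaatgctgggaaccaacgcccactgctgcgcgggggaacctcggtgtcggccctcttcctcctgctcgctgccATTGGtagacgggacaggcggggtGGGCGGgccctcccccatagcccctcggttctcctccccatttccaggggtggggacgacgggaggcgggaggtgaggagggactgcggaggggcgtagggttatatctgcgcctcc
Lamb1: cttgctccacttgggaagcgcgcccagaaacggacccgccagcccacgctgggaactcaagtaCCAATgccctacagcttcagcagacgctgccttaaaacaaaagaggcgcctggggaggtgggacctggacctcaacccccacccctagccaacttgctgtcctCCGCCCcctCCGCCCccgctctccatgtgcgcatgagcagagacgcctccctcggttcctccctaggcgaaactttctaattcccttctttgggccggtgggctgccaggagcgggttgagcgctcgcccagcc
The GC box was found 1 time in the Nid1 promoter, 2 times in that of Lamb1, 5 times in that of Hspg2, 4 times in that of Lama5, 1 time in that of Lama2 and 0 times in that of Lamb2, and 35.7% of all 32851 promoters held it. CCAAT was found 1 time each in Nid1 and Lamb1 and in none of the other 4, against 37.4% of all promoters. The E-box CAGCTG, the TATA box TATAAA and the AP-1 motif TGACTCA were in none of the 6, and 16.3%, 13.6% and 5.2% of all promoters held them. Against a median GC content of 52.7% over all promoters, those of Lama5 (72.7%), Hspg2 (70.3%), Nid1 (64.7%) and Lamb1 (63.7%) lay above and those of Lama2 (50.3%) and Lamb2 (44%) below.

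The 2 nidogens moved in opposite directions after the mimic: Nid1 rose and Nid2 fell. The laminin chains and perlecan did not pass the test. In the background of all 13138 genes, 2.8% rose and 2.34% fell (5.15% in either direction), so that the 1 higher and 1 lower member of 8 are too few to set against these shares. In RNA of whole cultures, fewer cells of a type and less RNA per cell cannot be told apart.

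Nid1, the major nidogen, is on chromosome 13, and its representing probe lay at chr13:13604435-13604494 (mm9, plus strand, from base 5938 of the transcript). Its level was 2.41, 2.46 and 2.40 in the mimic arrays, against 1.17 and 0.89 in the scrambled arrays. The mimic arrays lay within 0.06 of each other and all above both scrambled arrays, as for 19.8% of all tested genes. The scrambled arrays were 0.29 apart. The averages were 2.42 ± 0.03 after the mimic (SD, n = 3) and 1.03 ± 0.20 after the scrambled sequence (SD, n = 2). Nid1 rose by 1.40 ± 0.15 (SE, log2), a 2.63-fold difference, with a 95% interval of 1.03 to 1.76 and an adjusted p = 0.010 from limma. Before normalisation the processed signal was 15622, 12586 and 15849 in the mimic arrays, against 5543 and 3784 in the scrambled arrays, so the groups were apart in the unscaled signal as well.

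The other 2 probes of Nid1 lay far from the first along the transcript and ran the same way. The probe from base 269 is shown because its ends lie 25855 bases apart on the genome (chr13:13530138-13555992, mm9, plus strand), so that it spans a splice junction and reads spliced RNA.
Nid1, base 269: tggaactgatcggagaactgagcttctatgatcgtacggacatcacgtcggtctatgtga
At that probe the levels were -1.87, -1.57 and -1.62 in the mimic arrays, against -3.25 and -2.73 in the scrambled arrays. Its difference was 1.30 ± 0.21 (SE) with an adjusted p = 0.031 when each of 16722 probes was tested by limma, a fit in which 2.39% of all probes rose and 2.19% fell. The probe from base 4283 had levels of -1.78, -1.77 and -1.55 in the mimic arrays, against -3.49 and -2.50 in the scrambled arrays. It differed by a similar 1.30 ± 0.30 but missed the threshold (adjusted p = 0.074), and its scrambled arrays were 0.99 apart. At each of the 3 probes every mimic array was above both scrambled arrays, which 19.8% of all tested genes showed at their representing probe.

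Nid2, the second nidogen, which shares the laminin-bridging role, is on chromosome 14 (probe at chr14:20630490-20630549, mm9, plus strand). Its level was -2.48, -2.42 and -2.34 in the mimic arrays, against -1.75 and -1.35 in the scrambled arrays. All mimic arrays were below both scrambled arrays, as for 25.8% of all tested genes, and the spread was wider among the scrambled ones. The averages were -2.42 ± 0.07 (SD, n = 3) after the mimic and -1.55 ± 0.28 (SD, n = 2) after the scrambled sequence. Nid2 fell by 0.86 on the log2 scale, with an SE of 0.17, which is 1.82-fold lower (95% interval -1.28 to -0.44, adjusted p = 0.048 from limma). Unlike Nid1 it was read by a single probe.

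**Figure D1:**
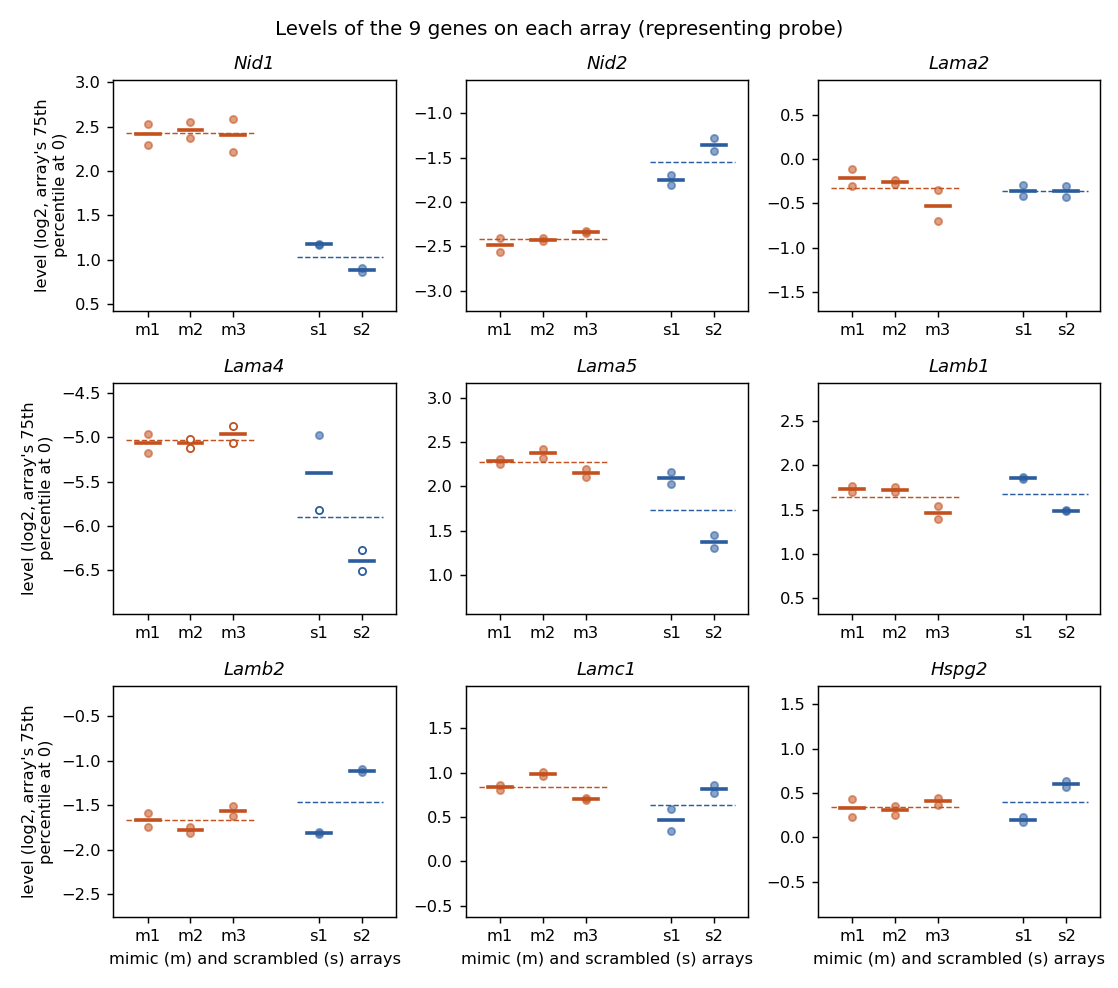
Levels (log2, 0 is the 75th percentile of the probes above background in all files) of the 9 genes at their brightest probe. Mimic arrays m1 to m3 are left of scrambled arrays s1 and s2. Points are the 2 scans of an array (open where not well above background), short bars their mean and dashed lines the group means, and each panel spans 2.6 log2 units. Nid1 and Nid2 separate in opposite directions, whereas for Lama5 and Lamb2 scrambled array 2 lies apart from scrambled array 1.

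Of 21 other ways of processing the data, 17 kept Nid1 past the threshold and 11 kept Nid2 there, and none changed the sign of either. These counts include fits with the 2 scans of an array as separate arrays, which are not independent. They also include fits with 1 scrambled array left, whose p-values hold no scatter between scrambled arrays. Over the 21 ways, the difference of Nid1 ranged from 1.25 to 1.55 and that of Nid2 from -1.06 to -0.66. The Nid1 call was lost without mimic array 1, 2 or 3 (adjusted p = 0.077, 0.065 and 0.052 from limma), although the difference was still 1.40, 1.38 and 1.41. The Nid2 call was lost without mimic array 1, 2 or 3 (adjusted p = 0.217, 0.171 and 0.142 from limma). Without scrambled array 1 the difference of Nid2 was -1.06, and without scrambled array 2 it was -0.66. Its size therefore depended on which scrambled array was kept, and the fall of Nid2 was smaller against scrambled array 1 alone. Within the first row of the slide, which held mimic array 1 and scrambled array 1, the differences were 1.24 for Nid1 and -0.73 for Nid2. Within the second row, which held the other arrays, they were 1.55 and -1.03.

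**Figure D2:**
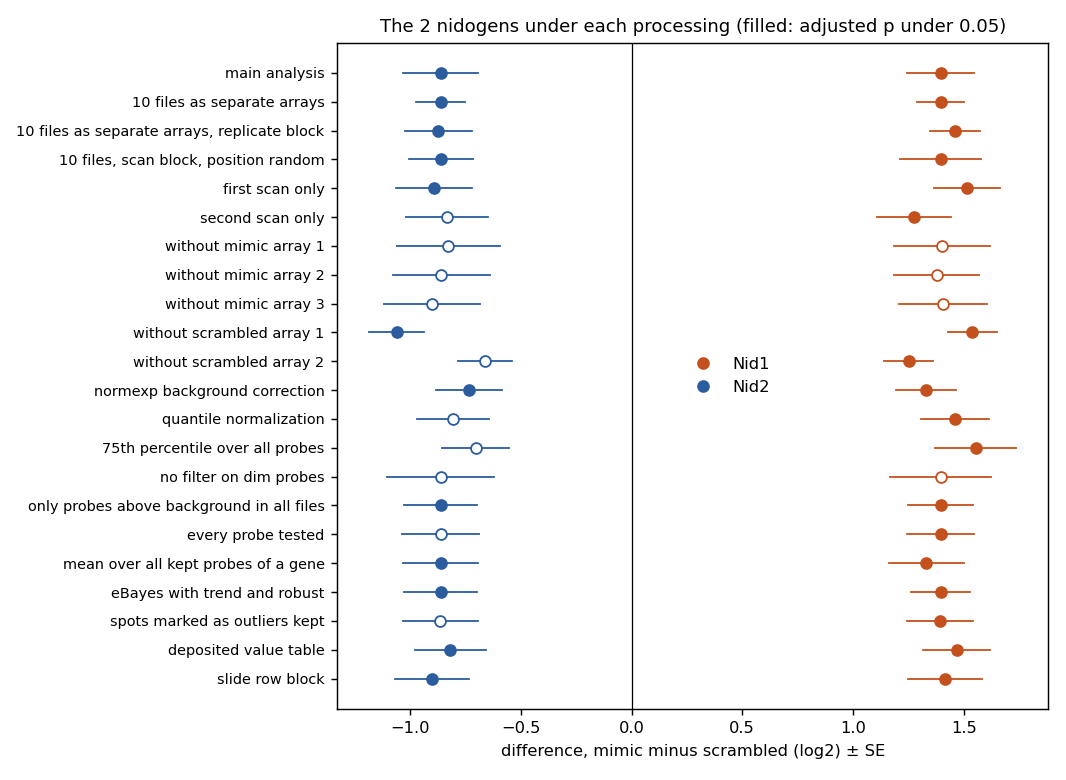
Difference (mimic minus scrambled, log2, with SE) of Nid1 and Nid2 in the main analysis and in each of 21 alternatives, down the page. Filled points have an adjusted p under 0.05, and all values of Nid1 lie above 0 and all values of Nid2 below it.

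The laminin α chains carry the globular domains that bind integrins and dystroglycan. Lama2 encodes the α chain of merosin, the main laminin of muscle fibres, and its loss causes a congenital muscular dystrophy. It was read by 2 probes on chromosome 10 (mm9, minus strand). At the brighter one the levels were -0.21, -0.26 and -0.52 in the mimic arrays, against -0.35 and -0.36 in the scrambled arrays. The groups overlapped, with a difference of 0.03 ± 0.16 (SE, 95% interval -0.36 to 0.41, adjusted p = 0.924 from limma). At the second probe the levels were -0.91, -0.96 and -0.97 in the mimic arrays, against -1.19 and -1.46 in the scrambled arrays. That probe differed by 0.38 ± 0.15 and did not pass either (adjusted p = 0.192 from limma over all probes). Its mimic arrays were all above both scrambled arrays, as for 19.8% of all tested genes.

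Lama5, the α chain of laminins widespread in developing and adult basement membranes, was read by 1 probe (chr2:179911079-179911138, mm9, minus strand). Its level was 2.28, 2.37 and 2.15 in the mimic arrays, against 2.10 and 1.38 in the scrambled arrays. Every mimic array was above both scrambled arrays, as for 19.8% of all tested genes, but the 2 scrambled arrays were 0.72 apart. The difference was 0.53 ± 0.24 (SE, 95% interval -0.05 to 1.11, adjusted p = 0.224 from limma). Without scrambled array 1 it was 0.89, and without scrambled array 2 it was 0.17.

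Lama4, the α chain of vessel-associated and mesenchymal laminins, was dim throughout. It was well above background in 2 of 6 mimic files, both scans of mimic array 1, and in 1 of 4 scrambled files, a scan of scrambled array 1. Its measured level was -5.07, -5.07 and -4.97 in the mimic arrays, against -5.40 and -6.39 in the scrambled arrays, mostly signals that have only an upper bound. Without a filter on dim probes its difference was 0.86 ± 0.33 (adjusted p = 0.567 from limma over 34474 genes), and no fold is given for it.

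The β and γ chains are shared between trimers, and Lamc1 encodes the γ chain of nearly all laminins and the site to which nidogen binds. The level of Lamc1 (probe at chr1:155066156-155066215, mm9, minus strand) was 0.83, 0.98 and 0.70 in the mimic arrays, against 0.47 and 0.81 in the scrambled arrays. These overlapped, and the difference was 0.20 ± 0.17 (SE, 95% interval -0.23 to 0.63, adjusted p = 0.490 from limma). Leaving out scrambled array 1 gave 0.03, and leaving out scrambled array 2 gave 0.37.

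Lamb1, the β chain of embryonic and many adult laminins, was at 1.73, 1.73 and 1.46 in the mimic arrays, against 1.85 and 1.49 in the scrambled arrays (chr12:32014411-32014470, mm9, plus strand). Its difference was -0.03 ± 0.18 (95% interval -0.47 to 0.41, adjusted p = 0.929), and its sign depended on the scaling. Lamb2, the β chain of the synaptic basement membrane at the neuromuscular junction, was at -1.66, -1.78 and -1.57 in the mimic arrays, against -1.81 and -1.11 in the scrambled arrays (chr9:108392189-108392248, mm9, plus strand). Scrambled array 1 was below all mimic arrays and scrambled array 2 above them. The difference of Lamb2 was -0.21 ± 0.23 (95% interval -0.78 to 0.36, adjusted p = 0.593). It was -0.56 without scrambled array 1, past the threshold (adjusted p = 0.044 from limma), and 0.14 without scrambled array 2. The intervals of Lama2, Lamb1 and Lamc1 leave room for differences of up to 0.63 in size on the log2 scale, and those of Lama5 and Lamb2 for larger ones.

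Perlecan gave different values at its 2 probes, which lay 947 bases apart between their starts on chromosome 4. The brighter one, from base 14023 of the transcript (chr4:137126392-137126451, mm9, plus strand), had levels of 0.33, 0.30 and 0.41 in the mimic arrays, against 0.20 and 0.60 in the scrambled arrays. Its difference was -0.05 ± 0.17 (SE, 95% interval -0.47 to 0.36, adjusted p = 0.854 from limma), and it changed sign with the scaling. The dimmer probe, from base 13076 (chr4:137125445-137125504, mm9, plus strand), is printed because it alone of the 2 separated the groups.
Hspg2, base 13076: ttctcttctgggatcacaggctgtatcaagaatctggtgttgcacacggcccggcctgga
There the levels were -3.52, -3.50 and -3.50 in the mimic arrays, against -3.13 and -1.72 in the scrambled arrays. All mimic arrays were below both scrambled arrays, as for 25.8% of all tested genes. The mimic arrays lay within 0.02 of each other and the scrambled arrays 1.41 apart, so most of the difference of -1.08 ± 0.40 rested on scrambled array 2. It did not pass the test over all probes (adjusted p = 0.170), and it was -0.37 against scrambled array 1 and -1.79 against scrambled array 2.

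**Figure D3:**
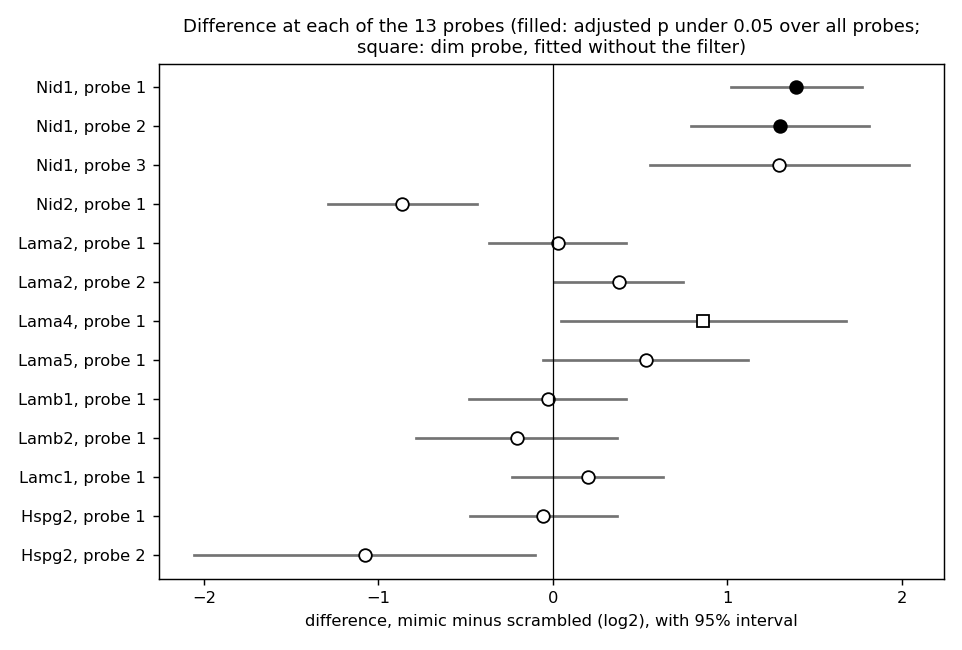
Difference (mimic minus scrambled, log2) with its 95% interval at each of the 13 probes, numbered within each gene from the brightest for Nid1, Lama2 and Hspg2. Filled points pass limma's threshold over all probes, and the square is the dim Lama4 probe fitted without the filter. The 3 Nid1 probes lie between 1.30 and 1.40, the Nid2 probe is at -0.86, and the 2 Hspg2 probes are at -0.05 and -1.08.

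The genes whose centred levels over the 5 arrays were closest to those of Nid1 were Thbs3, a thrombospondin of the matrix, Stmn2, a microtubule regulator, Gm3776, Ngef, a guanine nucleotide exchange factor, and Kctd15. Their Euclidean distances from Nid1 were 0.0858, 0.106, 0.156, 0.172 and 0.172 (log2 units, 5 arrays), among 10566 genes well above background in all files. Their differences lay between 1.26 for Ngef and 1.45 for Thbs3. Values near that of Nid1 follow from the choice, which was made on the same 5 arrays.

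Among other basement membrane components, 2 of 17 tested genes were higher, 0 lower and 15 not past limma's threshold, while 8 of the 17 had an unadjusted p under 0.05 (25.3% of all genes did). Over all tested genes, 2.8% were higher and 2.34% lower. The median difference of these 17 was 0.25, against -0.05 over all tested genes. Lamb3, the β chain of the epithelial laminin-332, rose by 1.45 ± 0.22 (adjusted p = 0.023), at -2.11, -2.42 and -1.77 in the mimic arrays, against -3.50 and -3.60 in the scrambled arrays. Col18a1, the collagen that releases endostatin, rose by 0.68 ± 0.14 (adjusted p = 0.049), at 0.89, 0.79 and 0.92 in the mimic arrays, against 0.23 and 0.13 in the scrambled arrays. The Col18a1 call was lost in 7 of 16 other ways of processing (adjusted p up to 0.461 from limma) and in each fit that left out a mimic array. Col4a1 and Col4a2, the type IV collagen chains to which nidogens connect laminin, overlapped between groups, with differences of 0.24 ± 0.28 and 0.25 ± 0.26 (adjusted p = 0.616 and 0.568). Both were chosen for naming after their values were seen.

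Of 20 tested genes on a list of matrix receptors and associated membrane proteins, 1 rose, 2 fell and 17 did not pass, with a median of -0.08. Over all tested genes, 2.8% rose and 2.34% fell. An unadjusted p under 0.05 from limma was found for 10 of the 20, against 25.3% of all genes. The list reaches beyond receptors of laminin, nidogen and perlecan, and the 2 that fell act with agrin. Itgb4, the integrin subunit that pairs with α6 to bind laminin, was detected above background in 6 of 6 mimic files and 0 of 4 scrambled files, so it passed the filter through the mimic files alone and its adjusted p = 0.0031 from limma rests on scrambled signals at background. Its level after the mimic was at least 8.09-fold higher on the processed signal, which sets the mean mimic level of -1.92 against the lowest signals called above background, the measured scrambled mean being -6.11. With normexp background correction the difference was 2.22 on the log2 scale, which is below that bound of 3.02. Lrp4, a receptor for agrin at the neuromuscular junction, fell by 1.16 (SE 0.17, adjusted p = 0.023). Musk, the kinase that works with Lrp4, fell by 0.81 (SE 0.14, adjusted p = 0.036). The calls of Lrp4 and Musk were lost in 3 and 2 of 16 other ways of processing (adjusted p up to 0.224 and 0.365 from limma). Dag1, the dystroglycan precursor, chosen for naming once its value was known, had levels of -1.73, -1.61 and -1.48 in the mimic arrays, against -0.74 and 0.04 in the scrambled arrays. All mimic arrays were below both scrambled arrays, as for 25.8% of all tested genes. The difference of Dag1, -1.26 ± 0.25, missed the threshold (adjusted p = 0.05004 from limma). It passed in 9 of 16 other ways of processing (adjusted p = 4.25e-04 to 0.289 from limma). Without scrambled array 1 the difference of Dag1 was -1.65, and without scrambled array 2 it was -0.86. Of the 16 enzymes that build the laminin-binding glycan of dystroglycan, 0 were higher and 1 lower by limma. An unadjusted p under 0.05 was found for 5 of them, against 25.3% of all genes.

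Genes that secrete, modify and sulfate matrix proteins had 3 of 28 tested higher and 1 lower, against 2.8% and 2.34% of all genes. Their median was 0.03, and 13 had an unadjusted p under 0.05 from limma (25.3% of all genes did). Sulf1 and Sulf2, which remove 6-O-sulfates from heparan sulfate chains such as those of perlecan, rose by 0.95 ± 0.13 and 0.84 ± 0.14 (adjusted p = 0.018 and 0.035). P4ha1, a prolyl hydroxylase for collagen, rose by 0.76 ± 0.14 (adjusted p = 0.038). The calls of Sulf1, Sulf2 and P4ha1 were lost in 2, 3 and 4 of 16 other ways of processing (adjusted p up to 0.256, 0.348 and 0.391 from limma). All 3 calls were also lost in each fit that left out a mimic array. Hs2st1, which adds 2-O-sulfate to heparan sulfate, fell by 0.67 (SE 0.13, adjusted p = 0.048), at -3.10, -3.001 and -3.03 in the mimic arrays, against -2.33 and -2.41 in the scrambled arrays. That call was lost in 9 of 16 other ways of processing (adjusted p up to 0.464 from limma) and in each fit that left out a mimic array. Among 19 proteases, inhibitors and heparan sulfate-cutting enzymes, 4 rose and 0 fell by limma, against 2.8% and 2.34% of all tested genes. An unadjusted p under 0.05 was found for 9 of them (25.3% of all genes), and the median was 0.11. Hpse, heparanase, which cuts heparan sulfate, rose by 1.84 ± 0.15 (adjusted p = 0.0055), with 2 of 4 scrambled files above background, so that its size rests partly on dim signals, and it was 1.08 with normexp background correction. Timp3, a metalloprotease inhibitor bound to the matrix, rose by 0.97 ± 0.14, and the secreted protease Htra1 by 0.95 ± 0.14 (adjusted p = 0.019 and 0.022).

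Of 20 other genes with a call that were followed through the alternatives, 19 lost their call without mimic array 1, 18 without mimic array 2 and 15 without mimic array 3. Without a mimic array their differences were 88.6% to 111% of those with all arrays, and the count of all genes called was 47, 79 or 138, against 676. Fits without a scrambled array are left out of these counts, because 1 scrambled array holds no scatter between scrambled arrays.

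**Figure D4:**
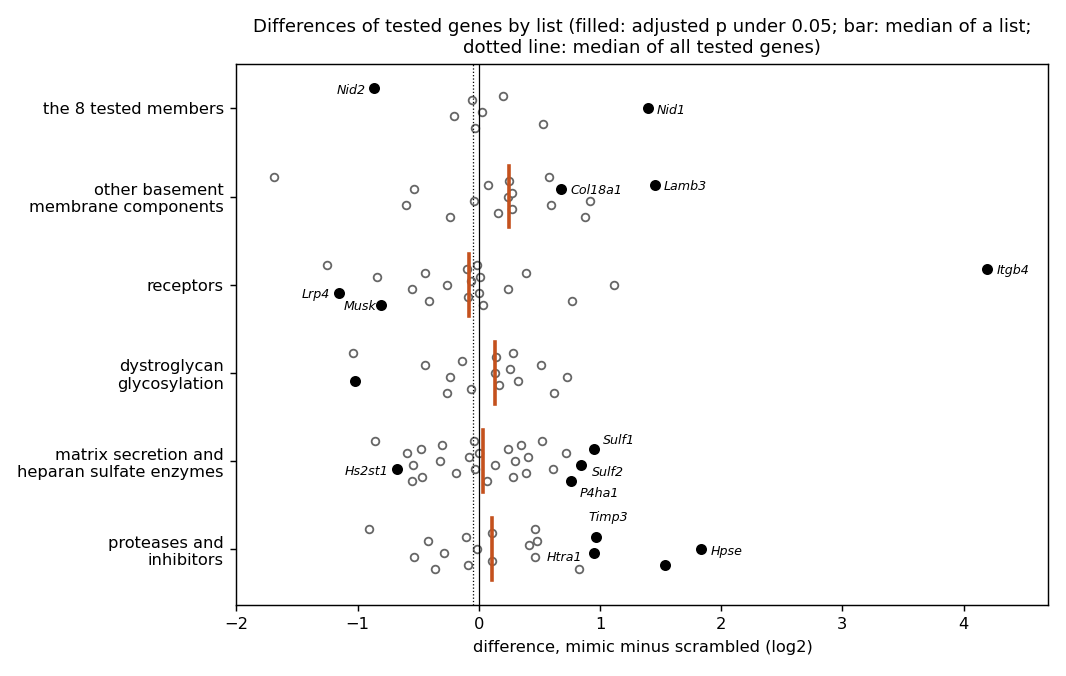
Fitted differences (mimic minus scrambled, log2) of the tested genes of the family and of 5 related lists, with genes past limma's threshold filled and those named in the text labelled, medians of the related lists as bars and the median of all genes, -0.05, dotted. Itgb4 stands farthest right, but its fitted value rests on scrambled signals not above background.

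Muscle differentiation markers fell in the same contrast, and their part in the nidogen differences was not tested. Of the 7 myoblast markers, 5 were well above background in all files, Myod1 and Des among them, which is the labelled cell type. By limma, 0 of the 5 tested were called and 4 had an unadjusted p under 0.05, against 5.15% and 25.3% of all tested genes. Their median difference was -0.70. Of 13 tested markers of differentiating myocytes and myotubes, 0 were higher and 9 lower, against 2.8% and 2.34% of all tested genes. Myog of that list fell by 2.10 on the log2 scale (SE 0.21, adjusted p = 0.0092 from limma). The summed linear signal of that list, in units of the 75th percentile, was 17.7 to 21.3 on the mimic arrays and 41.5 to 46.5 on the scrambled arrays. All 6 epithelial and all 4 adipocyte markers were above background in no file, as were 5 of 6 endothelial, 3 of 4 Schwann cell, 5 of 8 fibroblast and smooth muscle, and 2 of 5 immune markers. The summed signals of the fibroblast and smooth muscle list were 0.25 to 0.26 on the mimic arrays and 0.36 to 0.40 on the scrambled arrays. Of the 3 tested genes of that list, 2 were lower, against 2.34% of all tested genes. Their part in the other results was not tested. These were Tagln and Pdgfra, the last above background in 1 of 6 mimic files and 3 of 4 scrambled files, so that it passed the filter mostly through the scrambled files. The third, Lum, differed by 0.19 ± 0.40 (adjusted p = 0.782).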

How the data were processed

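Linear spot intensity was read from the scanner output, which per the file headers is the processed signal (background-subtracted and detrended) of Agilent Feature Extraction 12.0.0.7, with probe positions on mm9. Version 10.7.3.1 is listed in the submitters' processing notes. The value table that the authors deposited (linear, uncentred intensity with column medians of 192.1 to 294.1 for mimic and 202.9 to 245.0 for scrambled samples, scaling not given in the sources used here) served as an alternative only.

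Outlier spots, 157 to 270 a file, and controls were dropped, log2 signals of repeated spots averaged, and the 75th percentile over the 13029 probes above background in all 10 files subtracted per file. A probe counted as above background where 50% or more of its spots were. Probes above background in at least 4 of 10 files were kept (16786), each gene was its kept probe with the highest mean signal, and 13138 genes were tested. Members were matched on the file's gene name, other probes through RefSeq accession (28026), symbol (3418) or older symbol (295), the rest keeping the file's name (23942). The groups were set against each other by lmFit and eBayes of limma 3.58.1 under R 4.3.3, with 3 residual degrees of freedom and 2.93 from the prior. The fit was tested on simulated data with independent noise of equal spread in both groups. That setting does not hold the wider gap between the scrambled arrays. The p-values had Benjamini-Hochberg adjustment. The number of arrays limits the precision, and p-values cover only the scatter of 5 arrays, part or all of which may be technical.

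The members, gene lists and tests were chosen with earlier results of these data known. All members and, per list, up to 4 called genes by smallest p were named, with the 5 genes nearest Nid1, except a few items that are not reported here. Alternatives covered scaling, background correction, filters, probe choice, scan, replicate unit, left-out arrays and the slide row, the last chosen after seeing the data.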

Additional observations from a re-analysis of the deposited data

How the results depend on the processing

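The number of arrays and the 2 scrambled arrays set the limits, and Lama4 was limited by its dim signal. Nid1 kept its sign in all 21 alternatives and Nid2 in all 21, with adjusted p-values from limma of 7.24e-06 to 0.135 and 2.2e-04 to 0.372. The lowest of each came from the 10 files as separate arrays. The deviations of same-numbered files from their group means correlated at 0.38, -0.04, -0.35 and -0.10, and 1 of 4 scrambled files correlated best with its own number. These deviations were not adjusted for scan, so they cannot decide whether the replicate numbers pair the samples. With the 10 files as separate arrays 4512 genes were called, and 1950 with the replicate number as a block. Both fits count the 2 scans of an array as independent, so their p-values are too small. The nidogen calls held in both, and Lama5 was called without the block (0.53, adjusted p = 0.029 from limma), which gave 2 members higher. A model of scan (fixed) and array position (random) called 1459 genes, against 676, and the nidogen calls held. That model took a common correlation between scans for all genes, so its p-values may be too small for genes whose scans correlate more. With no filter on dim probes 17 genes were called and 0 members in either direction (Nid1 1.40, Nid2 -0.86). The Nid2 call was also lost, leaving 0 members lower, in the second scan alone (-0.83, adjusted p = 0.066), with quantile normalization (-0.81, 0.052), with the percentile over all probes (-0.70, 0.055), with every probe tested (-0.86, 0.054) and with outlier spots kept (-0.86, 0.052). The percentile over all probes moved the median of all genes to 0.11, against -0.05, and the lower share of calls to 31.8% of 737, against 45.6% of 676. That share was 36.8% with quantile normalization, 37% in the value table, 35.3% with no filter, 56.3% with 10 files as arrays, 55.3% with the replicate block and 36.2% without mimic array 1. Members near 0 changed sign without passing the threshold. Lama2 was at -0.0069 in the first scan, and Hspg2 at 0.10 with the percentile over all probes. Lamb1 was at 0.0065 in the second scan, 0.067 with normexp, 0.012 with quantile normalization, 0.13 with the percentile over all probes, 0.0054 in the value table and 0.0085 with the slide row as a block. Leaving out 1 array at a time gave 1.25 to 1.54 for Nid1, -1.06 to -0.66 for Nid2, -0.033 to 0.12 for Lama2, 0.17 to 0.89 for Lama5, -0.21 to 0.15 for Lamb1, -0.56 to 0.14 for Lamb2, 0.03 to 0.37 for Lamc1 and -0.26 to 0.15 for Hspg2, with 0 to 2 members higher, 0 to 2 lower and 47 to 4352 genes called. Of 480 values of 23 other genes, 363 kept direction and side of the threshold, 99 lost the call, 18 gained it and 0 changed sign. Fits with 1 scrambled array left or with scans counted as separate arrays are among these.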

Other observations

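Other matrix genes are named here after their values were seen. Of the 3 main chains of type VI collagen, which lies next to the basement membrane of muscle, Col6a2 was at -1.69 ± 0.35 and Col6a1 at -0.60 ± 0.14 (SE, log2, adjusted p = 0.055 and 0.064 from limma). For both, all mimic arrays were below both scrambled arrays, as for 25.8% of all tested genes. Col6a3 was at 0.28 ± 0.13 (adjusted p = 0.254 from limma), with all mimic arrays above, as for 19.8%. Agrn, agrin, a heparan sulfate proteoglycan that signals through Lrp4 and Musk, was at 0.60 ± 0.20 (adjusted p = 0.142).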
